A study of Mus musculus with 10 samples.

Results

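The heat shock and endoplasmic reticulum chaperones described here are 37 listed genes, of which 15 encode cytosolic or mitochondrial heat shock proteins and their regulators and 22 encode chaperones, folding enzymes and stress sensors of the endoplasmic reticulum. They were chosen by name, with earlier results of these data known. Of the 37, 36 had a probe with their name on the array and 32 were tested, 12 of the heat shock genes and 20 of the endoplasmic reticulum genes, among 14859 features in all. Hsp90ab1, the constitutive cytosolic HSP90, had no probe under its name. Dnaja1, a J-domain co-chaperone of HSP70, was detected on 1 of 5 TCL1-AT arrays and 0 of 5 WT arrays. Hsf1, the master activator of heat shock transcription, was detected on 0 of 10 arrays. Canx, the membrane-bound lectin chaperone calnexin, was detected on 0 TCL1-AT arrays and 1 WT array, and Manf, a secreted stress-induced factor, on 0 of 10. These 4 genes were not tested, and a dim probe gives no statement about the level of its transcript.

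The TCL1-AT group is 5 samples of monocytes from the spleens of leukaemic C57BL/6 mice, 3 months of age. These mice had received murine CLL (chronic lymphocytic leukaemia) cells from Eµ-TCL1 animals, whose B cells carry a TCL1 transgene, 6 weeks before. The WT group is 5 samples, labelled as pools, of splenic monocytes from C57BL/6 mice of the same age with no transplantation. Cells of both groups were sorted as lineage negative, CD11b positive, F4/80 intermediate, CD11c low to intermediate and MHC class II low. The labels do not give the number of mice in a pool, or whether each TCL1-AT sample is 1 mouse, so the p-values measure the spread between these samples only. The labels name no sham transplantation for the WT mice.

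Heat shock proteins are molecular chaperones of the cytosol and the mitochondria. HSP70 proteins bind exposed hydrophobic stretches and are driven by J-domain partners and nucleotide exchange factors, HSP90 completes the folding of kinases and receptors, and heat shock factor 1 induces many of these genes when unfolded proteins build up. In the endoplasmic reticulum, BiP, GRP94, calreticulin and protein disulfide isomerases fold secreted and membrane proteins, and the sensors IRE1, PERK and ATF6 start the unfolded protein response when that capacity is exceeded. Monocytes and macrophages use both systems, and their secreted cytokines and enzymes pass through that of the endoplasmic reticulum.

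On the whole array, 12.3% of features rose and 15.4% fell in TCL1-AT relative to WT (limma, Benjamini-Hochberg adjusted p under 0.05 over all features), and the groups did not overlap for 20.5%. The median log2 difference over all features was 0.02. TCL1-AT 4 stood apart from the other arrays on the second principal component (-32.5, with the others at -14.6 or above), and the median raw signal was 90.3 to 93.4 on TCL1-AT arrays and 80.4 to 92.1 on WT arrays. Marker levels were 10.66 to 10.95 in TCL1-AT and 10.87 to 11.04 in WT for monocyte genes (mean log2 signal of 9 genes). B cell genes stood at 5.73 to 6.38 in TCL1-AT and 5.45 to 5.68 in WT (5 genes), and neutrophil genes at 8.89 to 9.50 in TCL1-AT and 8.91 to 9.46 in WT (12 genes). The mast cell and basophil genes stood at 5.60 to 7.41 in TCL1-AT and 4.89 to 5.30 in WT (5 genes), and the red blood cell genes at 6.98 to 7.92 in TCL1-AT and 5.49 to 6.70 in WT (5 genes). Markers of lymphocytes were present: of the listed genes with a probe, 2 of 12 B cell genes, 6 of 9 T cell genes and 3 of 7 NK cell genes were detected on all 10 arrays, among them Cd79b, Cd3e and Prf1, and 1, 1 and 2 were detected on none (Bank1, Cd8a, and Ncr1 with Gzmb). Of the T cell genes, 7 were tested, at 5.62 to 5.87 in TCL1-AT and 6.24 to 6.59 in WT.

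Of the 32 tested chaperone genes, 4 were higher and 6 lower in TCL1-AT monocytes, and 22 were not called. That is 31.2% called, beside 27.7% of all features called in either direction, so the share of called members is near that of the array as a whole. Hsph1, Hspa8, Calr and Creld2 were higher. Hspe1, Hsp90b1, Dnajb9, Pdia6, Ern1 and Eif2ak3 were lower. The groups did not overlap for 7 of the 32, beside 20.5% of all features. At its brightest probe, no member reached a log2 difference of 1 in either direction, a size that 3.6% of all features reached. Dimmer probes of Hspa8 (1.03) and Hspd1 (1.23) did. In a bulk sample, fewer cells of a type and less RNA per cell cannot be told apart.

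**Figure D1:**
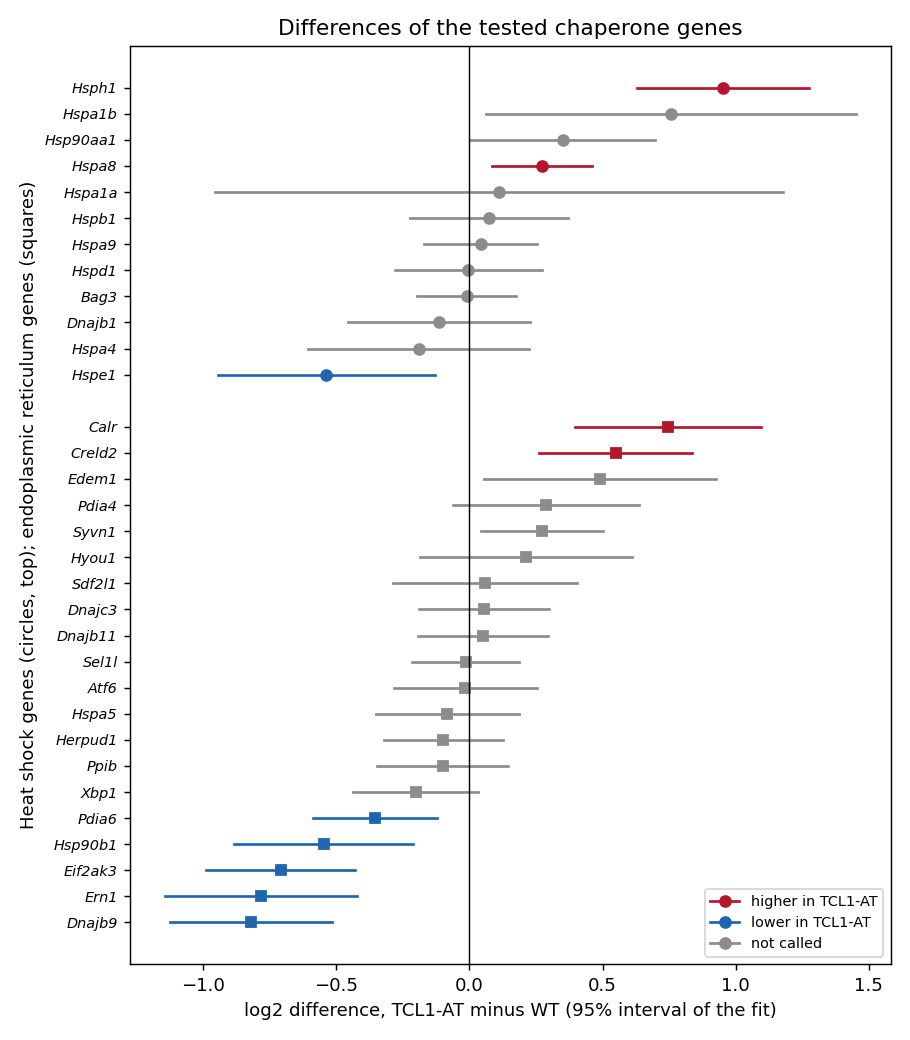
Log2 difference (TCL1-AT minus WT) of the 32 tested genes with the 95% interval of the limma fit, heat shock genes above and endoplasmic reticulum genes below. Most intervals cross 0, Hsph1 lies farthest to the right at 0.95 and Dnajb9 farthest to the left at -0.82.

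Among the 12 tested heat shock genes, 2 were higher (16.7%, beside 12.3% of all features) and 1 was lower (8.33%, beside 15.4%). Their median log2 difference was 0.06 and fell to -0.005 without TCL1-AT 1. The clearest difference was in Hsph1, which encodes HSP110, a nucleotide exchange factor that resets HSP70. Its probe gave 9.85, 8.99, 9.46, 9.12 and 9.30 on TCL1-AT arrays 1 to 5, against 8.37, 8.26, 8.26, 8.62 and 8.47 on WT arrays 1 to 5 (normalized log2 signal). Every TCL1-AT array lay above every WT array. The log2 difference was 0.95 (SE 0.15, adjusted p = 0.000413 in limma's test, 1.93-fold), and it was 0.82 without TCL1-AT 1 (adjusted p = 0.000505 in limma's test).

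Hspa8 encodes HSC70, the constitutive HSP70 that also uncoats clathrin vesicles. Its brightest probe gave 13.62, 13.47, 13.39, 13.43 and 13.53 in TCL1-AT, against 13.17, 13.23, 13.12, 13.30 and 13.25 in WT. The groups did not overlap, at a log2 difference of 0.27 (SE 0.09, adjusted p = 0.0324 in limma's test). The 3 probes of the gene disagreed in size and direction. A second probe gave 13.26, 11.99, 12.30, 13.04 and 12.67 in TCL1-AT and 11.47, 11.85, 12.15, 11.08 and 11.55 in WT, a called difference of 1.03 with overlap between the groups, and the remaining probe gave -0.15 and was not called. The call of the brightest probe was lost in 9 of 18 alternatives, among them median scaling (0.10, adjusted p = 0.403), the replicate block (0.27, adjusted p = 0.0836) and leaving out TCL1-AT 1 (0.24, adjusted p = 0.0764 in limma's test).

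Hspe1 encodes HSP10, the lid of the mitochondrial HSP60 folding chamber. It stood at 7.55, 7.09, 6.70, 6.68 and 7.02 in TCL1-AT, against 7.46, 8.04, 7.37, 7.71 and 7.14 in WT. TCL1-AT 1 was the high array of its group and overlapped with WT. The log2 difference was -0.54 (SE 0.19, adjusted p = 0.0493 in limma's test), just inside the threshold, and the call was lost in 12 of 18 alternatives.

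Hspd1, which encodes HSP60 and shares a divergent promoter with Hspe1, differed by -0.00 at its brightest probe (95% interval -0.28 to 0.27). A second, dimmer Hspd1 probe gave 7.27, 6.51, 6.61, 7.67 and 6.80 in TCL1-AT and 5.64, 5.88, 6.29, 5.37 and 5.54 in WT, with no overlap and a log2 difference of 1.23 (adjusted p = 0.00107 over single probes in limma's test). The mean of both probes gave 0.61 and was called (adjusted p = 0.00654), so the direction given for Hspd1 depends on the probe. The window before the start of Hspe1 is shown because the heat shock element matches of both genes lie there. It covers chr1:55087898-55088147 on the plus strand (RefSeq, GRCm38.p6), and the capitals mark 20 bases that read as 2 overlapping matches to the element.

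Hspe1: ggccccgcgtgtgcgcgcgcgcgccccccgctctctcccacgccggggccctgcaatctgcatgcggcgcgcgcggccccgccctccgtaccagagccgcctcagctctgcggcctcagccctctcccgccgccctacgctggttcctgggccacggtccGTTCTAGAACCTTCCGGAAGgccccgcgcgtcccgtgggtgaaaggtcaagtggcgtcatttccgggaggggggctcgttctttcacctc

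The element was sought as 3 adjoining units of 5 bases, NGAAN and NTTCN in turn, on both strands of the 250 bases before each gene start. The marked stretch lies at chr1:55088058-55088077, which is 90 to 71 bases before the start of Hspe1 and 145 to 126 bases before that of Hspd1. Such a match was found for 2 of the 10 heat shock genes with a promoter sequence and for 0.511% of 27025 genes. No match says only that these letters are not in the window. TATAAA, sought on both strands of the same windows, was found for 0 of the 29 members with a sequence. It was found for 14.3% of all genes and for 8.72% of the 8462 tested genes with a sequence.

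The stress-inducible HSP70 genes Hspa1a and Hspa1b were not called, and their means moved with single arrays. Hspa1a gave 8.71, 5.75, 6.14, 5.88 and 6.39 in TCL1-AT, against 6.06, 6.75, 6.29, 7.50 and 5.71 in WT. TCL1-AT 1 lay 2.67 above the mean of the other 4 TCL1-AT arrays, and WT 4 was the high array among WT. The log2 difference was 0.11 (SE 0.49, 95% interval -0.95 to 1.18, adjusted p = 0.893 in limma's test) and turned to -0.42 without TCL1-AT 1 (adjusted p = 0.319 in limma's test). The 2 dimmer Hspa1a probes differed by 0.90 and 0.35 and were not called (adjusted p = 0.0676 and 0.269 over single probes in limma's test), and the mean of all its probes by 0.45. The SD of Hspa1a was 1.22 in TCL1-AT, a spread as large as only 0.128% of features had there, beside a median SD of 0.189 over all features.

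Hspa1b gave 7.55, 5.15, 5.80, 6.07 and 6.18 in TCL1-AT, against 5.31, 5.55, 5.59, 5.12 and 5.41 in WT. TCL1-AT 1 was again high, TCL1-AT 2 lay within the WT range and the other 3 TCL1-AT arrays lay above every WT array. The log2 difference was 0.76 (SE 0.32, 95% interval 0.06 to 1.45), with an adjusted p of 0.0975 in limma's test that did not pass. Without TCL1-AT 1 it was 0.41 (adjusted p = 0.137 in limma's test), and without TCL1-AT 2 it was 1.01 and passed (adjusted p = 0.0220). The dimmer Hspa1b probe differed by 0.04, and the mean of both probes by 0.40. The 2 genes lie side by side on chromosome 17 and encode nearly the same protein, so the signal of one probe can include transcript of the other. Their promoter windows are shown because they are almost the same sequence. Capitals mark the 3 bases of 250 at which they differ (98.8% identity), in chr17:34972157-34972406 for Hspa1a and chr17:34959239-34959488 for Hspa1b, both on the minus strand (RefSeq, GRCm38.p6).

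Hspa1a: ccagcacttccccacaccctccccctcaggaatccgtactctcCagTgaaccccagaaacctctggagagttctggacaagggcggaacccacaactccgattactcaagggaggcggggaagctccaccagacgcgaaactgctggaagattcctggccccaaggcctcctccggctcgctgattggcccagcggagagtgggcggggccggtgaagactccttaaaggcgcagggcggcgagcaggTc
Hspa1b: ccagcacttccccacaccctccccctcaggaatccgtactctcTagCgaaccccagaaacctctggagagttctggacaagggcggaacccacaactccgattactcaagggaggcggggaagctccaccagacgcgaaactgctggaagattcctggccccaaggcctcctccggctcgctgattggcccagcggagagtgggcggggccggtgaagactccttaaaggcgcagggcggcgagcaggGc

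All 3 tested probes of Hspa1a and both tested probes of Hspa1b were highest on TCL1-AT 1 among TCL1-AT arrays. Their levels there were 8.71, 7.28 and 5.82 for Hspa1a and 7.55 and 5.83 for Hspa1b. WT 4 was highest among WT arrays at the brightest Hspa1a probe and at the dimmer Hspa1b probe (4.87), but the other Hspa1a probes gave 5.04 and 4.55 there and the brighter Hspa1b probe gave 5.12.

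TCL1-AT 1 was high for the heat shock genes as a group. This array was singled out after its values were seen, and the counts describe it with no test. It lay above the mean of the other 4 TCL1-AT arrays for 12 of 12 heat shock genes, by a median of 0.46, beside 47.9% of all features and a median of -0.01. It was the highest TCL1-AT array for 9 of 12 (75.0%), beside 18.1% of all features. Among all 14859 features, Hspa1a showed the largest excess on this array and Hspa1b ranked 3. For the endoplasmic reticulum genes the excess was smaller, with 12 of 20 above the other arrays and a median of 0.11.

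Dnajb1, the heat-inducible HSP40 that stimulates HSP70, had the same array pattern. It gave 11.01, 10.18, 10.36, 10.14 and 10.35 in TCL1-AT, against 10.61, 10.47, 10.54, 10.75 and 10.24 in WT. TCL1-AT 1 was the highest of all 10 arrays, and the other 4 TCL1-AT arrays lay within or below the WT range, at a log2 difference of -0.12 (SE 0.16, adjusted p = 0.627 in limma's test). Hsp90aa1, the inducible HSP90, gave 7.39, 6.72, 6.92, 6.78 and 6.76 in TCL1-AT, against 6.31, 6.92, 6.40, 6.85 and 6.34 in WT. The groups overlapped, and the difference of 0.35 did not pass (SE 0.16, adjusted p = 0.125 in limma's test). Its other tested probe gave -0.47 and was not called.

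WT 4 was the highest WT array for 7 of 12 heat shock genes (58.3%), beside 19.1% of all features, and lay above the mean of the other WT arrays for 10 of 12. On TCL1-AT 1 the neutrophil genes stood at 9.50, beside 8.89 to 9.09 on the other TCL1-AT arrays, and on WT 4 at 9.46, beside 8.91 to 9.40. Immediate early genes stood at 8.11 on TCL1-AT 1, within the 7.94 to 8.24 of the other TCL1-AT arrays, and at 7.90 on WT 4, beside 7.72 to 7.88 on the other WT arrays. The mast cell and basophil genes were at 7.34 on TCL1-AT 1, and at 5.60 to 7.41 on the others. The median raw signal of TCL1-AT 1 (92.3) lay within the range of its group. The part of these markers in the heat shock levels was not tested.

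**Figure D2:**
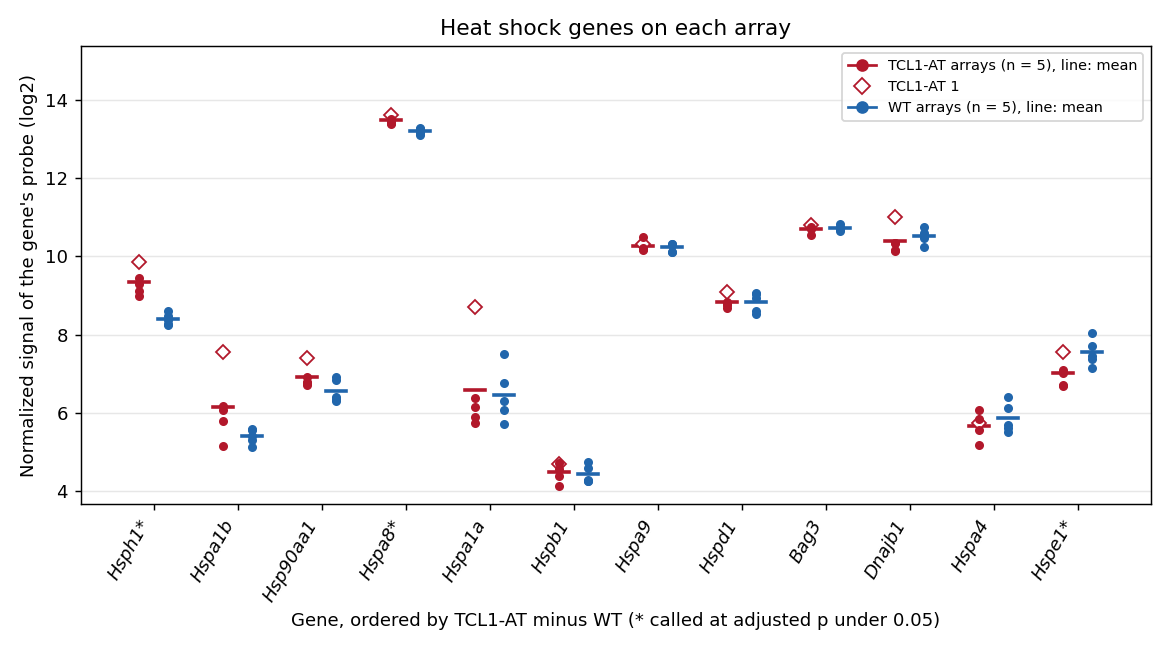
Normalized log2 signal of the 12 tested heat shock genes on every array, TCL1-AT in red on the left of each pair and WT in blue on the right, with group means as lines and TCL1-AT 1 as an open diamond. TCL1-AT 1 lies highest of its group for 9 genes and farthest for Hspa1a at 8.71, while for Hsph1 all 5 TCL1-AT arrays lie above all 5 WT arrays.

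The remaining heat shock genes showed no call. Hspa4, an HSP110 relative, differed by -0.19 (95% interval -0.61 to 0.23). Hspa9, the mitochondrial HSP70 mortalin, differed by 0.04 (-0.17 to 0.25), although its second probe gave a called 0.35. Bag3, a co-chaperone that directs clients to autophagy, differed by -0.01 (-0.20 to 0.18) with levels of 10.56 to 10.82 in TCL1-AT and 10.66 to 10.82 in WT. Hspb1, the small heat shock protein HSP27 (HSP25 in mice), was detected on only 3 TCL1-AT and 2 WT arrays, and differed by 0.07. Over the heat shock and endoplasmic reticulum genes, 11 had more than 1 tested probe. Over single probes 27% of all tested were called in either direction. Of the 14 further probes of members, 9 pointed the same way as the brightest one and 10 had the same call. The others were the called second probes of Hspd1 and Hspa9, whose brightest probes were not called, and uncalled further probes of Hspa8 and Ern1, whose brightest probes were called.

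Among the 20 tested endoplasmic reticulum genes, 2 were higher (10%, beside 12.3% of all features) and 5 lower (25%, beside 15.4%), with a median log2 difference of -0.01. The median turned to 0.02 without TCL1-AT 3. The genes moved in both directions within the same functional group. Calreticulin and Creld2 were higher, and the sensors Ern1 and Eif2ak3, the GRP94 gene Hsp90b1, the co-chaperone gene Dnajb9 and the isomerase gene Pdia6 were lower, while the BiP gene Hspa5 was not called.

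Many genes of the unfolded protein response carry an endoplasmic reticulum stress element, to which ATF6 binds together with the CCAAT-binding factor NF-Y. The element was sought as CCAAT, any 9 bases and CCACG, on both strands of the 250 bases before the gene start (RefSeq, GRCm38.p6). It was found for 8 of the 19 endoplasmic reticulum genes with a promoter sequence (42.1%), for 0 of 10 heat shock genes, for 0.130% of 27025 genes and for 0.118% of the 8462 tested genes with a sequence. The elements are shown in the direction CCAAT to CCACG with 10 bases on either side, the fixed letters in capitals, because genes with the same element were higher, lower and not called in these monocytes.

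Calr: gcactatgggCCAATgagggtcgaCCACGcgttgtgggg
Creld2: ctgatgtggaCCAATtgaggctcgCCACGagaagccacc
Hsp90b1: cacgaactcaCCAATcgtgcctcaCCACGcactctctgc
Hsp90b1: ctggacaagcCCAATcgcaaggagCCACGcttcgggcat
Pdia6: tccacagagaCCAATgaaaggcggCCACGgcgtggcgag
Hspa5: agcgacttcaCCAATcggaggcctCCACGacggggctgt
Dnajc3: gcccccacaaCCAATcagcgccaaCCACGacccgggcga
Syvn1: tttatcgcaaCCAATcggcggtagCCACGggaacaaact
Canx: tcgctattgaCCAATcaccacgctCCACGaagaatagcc

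In the same order, these lie at Calr chr8:84847065-84847103 (+), Creld2 chr15:88819510-88819548 (-), Hsp90b1 chr10:86705523-86705561 (+), Hsp90b1 chr10:86705628-86705666 (-), Pdia6 chr12:17266481-17266519 (+), Hspa5 chr2:34772015-34772053 (+), Dnajc3 chr14:118937817-118937855 (+), Syvn1 chr19:6046522-6046560 (+) and Canx chr11:50325790-50325828 (-), with the strand read in parentheses. Hsp90b1 has 2 of them, one in each orientation. Of the 7 tested genes with the element, 2 were higher (Calr and Creld2), 2 lower (Hsp90b1 and Pdia6) and 3 not called (Hspa5, Dnajc3 and Syvn1), with a median log2 difference of 0.05. Of the 11 tested genes with a sequence and no match, 0 were higher and 3 lower (Dnajb9, Ern1 and Eif2ak3), with a median of -0.10. Over all features 12.3% were higher and 15.4% lower. Both groups of genes are small, and they were not compared with a test. Herpud1, which has a second form of the element, counts among the genes with no match. A second form, ATTGG, any 1 base and CCACG, was found only in Herpud1 among the members (chr8:94386367-94386397) and in 0.0370% of all genes.

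Herpud1: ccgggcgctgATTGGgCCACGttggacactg

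The XBP1 and ATF6 element TGACGTGG, sought on both strands, was found in 0 members and in 0.603% of all genes. Hsf1, Hsp90aa1, Hsp90ab1, Hspa8, Hspa9, Manf, Hyou1 and Atf6 had no promoter sequence to search.

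**Figure D3:**
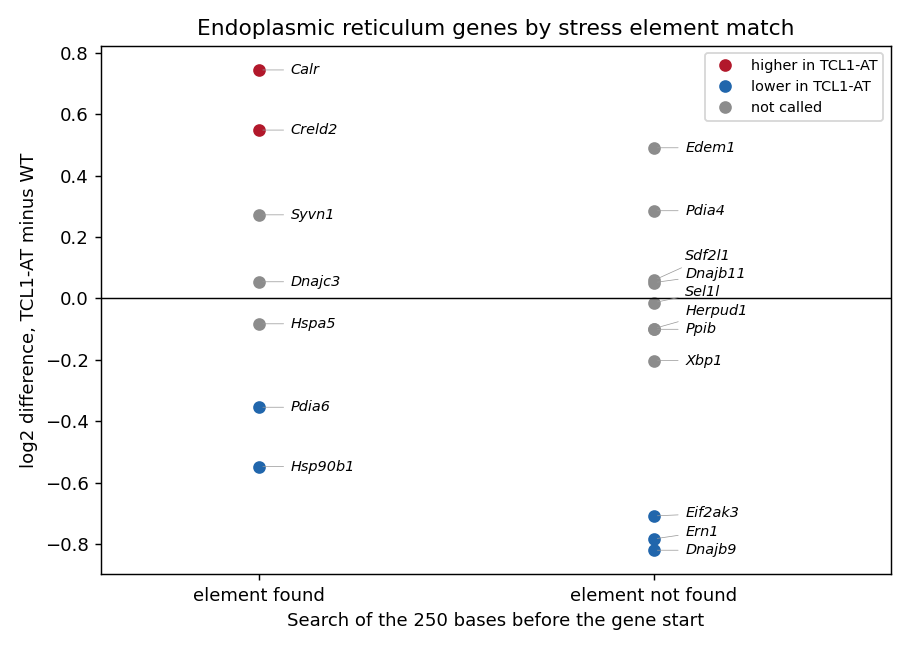
Log2 difference (TCL1-AT minus WT) of the 18 tested endoplasmic reticulum genes with a promoter sequence, by whether the stress element was found in the 250 bases before the gene start, with calls in colour. The 7 genes with the element spread from -0.55 (Hsp90b1) to 0.74 (Calr), and the 3 lowest genes, Dnajb9, Ern1 and Eif2ak3, are without a match.

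Calr encodes calreticulin, a calcium-binding lectin chaperone of glycoproteins. It gave 7.70, 7.62, 7.59, 7.83 and 7.79 in TCL1-AT, against 6.95, 7.42, 7.28, 6.46 and 6.69 in WT. Every TCL1-AT array lay above every WT array, and the WT arrays were the more spread (SD 0.10 in TCL1-AT and 0.40 in WT). The log2 difference was 0.74 (SE 0.16, adjusted p = 0.00415 in limma's test, 1.68-fold).

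Creld2, a stress-induced protein with disulfide isomerase activity, gave 8.37, 7.90, 7.88, 8.50 and 8.01 in TCL1-AT, against 7.59, 7.44, 7.56, 7.53 and 7.79 in WT. The groups did not overlap, and TCL1-AT 1 and 4 were the highest arrays. TCL1-AT exceeded WT by 0.55 on the log2 scale (SE 0.13, adjusted p = 0.00810 in limma's test), and the other probe gave a called 0.43. With the median raw signal as a covariate the difference was 0.60 and the call was lost (adjusted p = 0.0698 in limma's test).

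Hspa5 encodes BiP, the HSP70 of the endoplasmic reticulum and the best known marker of the unfolded protein response. It gave 6.09, 6.01, 5.68, 6.21 and 6.15 in TCL1-AT, against 5.98, 5.91, 6.10, 6.39 and 6.17 in WT. The groups overlapped almost fully, at a log2 difference of -0.08 (SE 0.12, 95% interval -0.35 to 0.18, adjusted p = 0.660 in limma's test). Its promoter window, at chr2:34771840-34772089 on the plus strand, is shown for comparison with that of Hsp90b1, which was lower, at chr10:86705445-86705694 on the minus strand. Capitals mark only matches to the exact letters of the stress element. Variants of these letters were not sought, so the marked matches are not a count of working elements.

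Hspa5: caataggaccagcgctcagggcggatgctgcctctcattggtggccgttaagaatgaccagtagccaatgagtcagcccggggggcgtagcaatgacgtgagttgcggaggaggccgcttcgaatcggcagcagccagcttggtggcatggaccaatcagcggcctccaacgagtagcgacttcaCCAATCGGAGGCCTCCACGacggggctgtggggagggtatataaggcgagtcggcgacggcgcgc
Hsp90b1: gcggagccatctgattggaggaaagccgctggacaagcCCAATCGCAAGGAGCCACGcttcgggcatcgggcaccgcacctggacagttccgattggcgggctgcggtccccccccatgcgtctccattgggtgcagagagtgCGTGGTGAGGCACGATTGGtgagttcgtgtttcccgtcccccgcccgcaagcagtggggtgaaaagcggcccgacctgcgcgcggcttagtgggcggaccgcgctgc

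Hsp90b1 encodes GRP94, the HSP90 of the endoplasmic reticulum, which folds toll-like receptors and integrins. It gave 10.62, 10.65, 10.34, 10.27 and 10.28 in TCL1-AT, against 10.59, 11.27, 10.74, 11.39 and 10.91 in WT. WT 1 was the low WT array and lay within the TCL1-AT range, and the other 4 WT arrays lay above all TCL1-AT arrays. TCL1-AT differed from WT by -0.55 on the log2 scale (SE 0.16, adjusted p = 0.0185 in limma's test). The call was lost with the median raw signal as a covariate (-0.53, adjusted p = 0.156) and with no detection filter (adjusted p = 0.0526 in limma's test).

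Dnajb9 encodes ERdj4, a BiP co-chaperone that holds IRE1 inactive. It gave 7.86, 7.37, 6.99, 7.41 and 7.35 in TCL1-AT, against 8.08, 8.42, 8.26, 8.26 and 8.07 in WT. Every TCL1-AT array lay below every WT array, at a log2 difference of -0.82 (SE 0.14, adjusted p = 0.000809 in limma's test, 1.77-fold lower). The other probe gave a called -0.98.

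Ern1 encodes IRE1 alpha, the sensor that splices Xbp1 mRNA. Its brightest probe gave 7.14, 7.38, 6.66, 7.50 and 7.15 in TCL1-AT, against 7.93, 8.40, 7.63, 7.89 and 7.91 in WT. The groups did not overlap, and the log2 difference was -0.78 (SE 0.17, adjusted p = 0.00359 in limma's test). A dimmer Ern1 probe gave 0.25 and was not called, and the mean of the probes gave -0.27 and was not called (adjusted p = 0.0770 in limma's test).

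Eif2ak3 encodes PERK, the sensor that slows translation by phosphorylating eIF2 alpha. It gave 5.17, 5.01, 4.46, 5.02 and 4.73 in TCL1-AT, against 5.75, 5.47, 5.53, 5.57 and 5.60 in WT. Every TCL1-AT array lay below every WT array, at a log2 difference of -0.71 (SE 0.13, adjusted p = 0.00130 in limma's test). The probe is dim and its raw intensities overlapped, at 93.4 to 110.0 in TCL1-AT and 104.2 to 125.9 in WT. The median raw signal of the arrays was 90.3 to 93.4 in TCL1-AT and 80.4 to 92.1 in WT. The size of this difference moved with the processing: it was -0.25 with no background correction and -0.28 with median scaling, which also used an offset of 50 in place of 16, and the call held in both.

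Pdia6, a protein disulfide isomerase that attenuates IRE1, gave 4.93, 4.97, 5.09, 5.42 and 5.25 in TCL1-AT, against 5.41, 5.52, 5.53, 5.56 and 5.41 in WT. Only TCL1-AT 4 reached the WT range, at a log2 difference of -0.35 (SE 0.11, adjusted p = 0.0256 in limma's test). This probe is dim too, with raw intensities of 104.3 to 114.5 in TCL1-AT and 99.6 to 125.5 in WT. The call was lost in 8 of 18 alternatives, including median scaling (-0.15, adjusted p = 0.170) and no background correction (-0.13, adjusted p = 0.0534 in limma's test).

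Xbp1, the transcription factor downstream of IRE1, gave 12.34, 12.23, 12.27, 12.57 and 12.35 in TCL1-AT, against 12.69, 12.54, 12.66, 12.25 and 12.62 in WT. The groups overlapped: TCL1-AT 1, 3, 4 and 5 lay inside the WT range, and WT 2 and WT 4 lay inside the TCL1-AT range. The difference of -0.20 on the log2 scale did not pass (SE 0.11, adjusted p = 0.188 in limma's test), but it passed with median scaling (-0.31, adjusted p = 0.0190 in limma's test). The arrays do not tell the spliced from the unspliced form here. Atf6, another sensor of unfolded proteins, differed by -0.02 (95% interval -0.28 to 0.25), at 4.71 to 5.06 in TCL1-AT and 4.65 to 5.31 in WT.

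**Figure D4:**
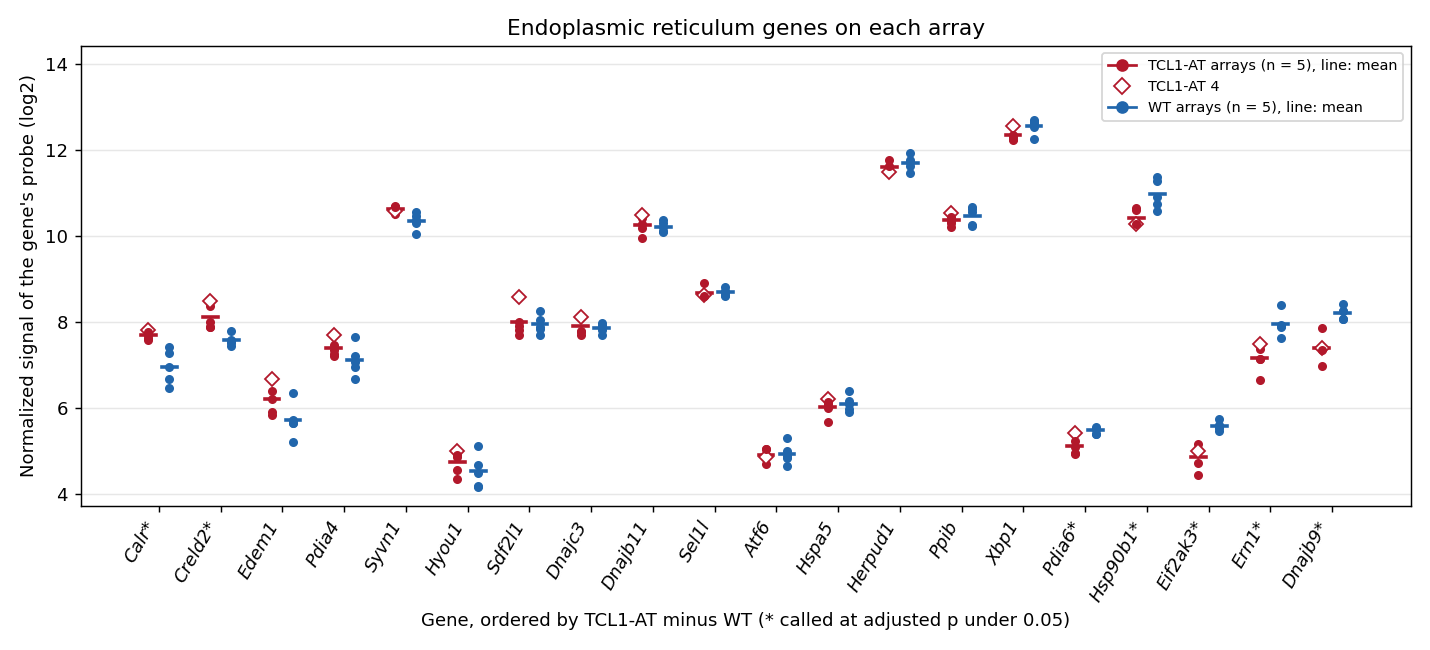
Normalized log2 signal of the 20 tested endoplasmic reticulum genes on every array, TCL1-AT in red on the left of each pair and WT in blue on the right, with group means as lines and TCL1-AT 4 as an open diamond. The groups are apart for Calr, Creld2, Dnajb9, Ern1 and Eif2ak3, and TCL1-AT 4 is the highest TCL1-AT array for 12 genes.

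The other BiP co-chaperones did not follow Dnajb9. Dnajb11 (ERdj3) differed by 0.05 (95% interval -0.19 to 0.30), Dnajc3 (p58IPK) by 0.05 (-0.19 to 0.30), Sdf2l1 by 0.06 (-0.29 to 0.41), and Hyou1, which encodes the exchange factor GRP170, by 0.21 (-0.19 to 0.61). Hyou1 was detected on 5 TCL1-AT arrays and 3 WT arrays. Of the folding enzymes, the isomerase gene Pdia4 differed by 0.29 (-0.06 to 0.64) and the cyclophilin B gene Ppib by -0.10 (-0.35 to 0.15). Genes of degradation from the endoplasmic reticulum included Edem1, a lectin that extracts misfolded glycoproteins, at 0.49 (0.06 to 0.93, adjusted p = 0.0873 in limma's test), and Syvn1, the ubiquitin ligase HRD1, at 0.27 (0.04 to 0.50, adjusted p = 0.0734 in limma's test). Herpud1 (-0.10) and Sel1l (-0.01), partners of HRD1, were not called. WT 3 was the high WT array for Edem1 (6.37, beside 5.22 to 5.73) and Pdia4 (7.66, beside 6.67 to 7.21). Without WT 3, the calls of Edem1 (0.65), Pdia4 (0.42) and Syvn1 (0.32) passed, and 5 of the 20 genes were higher.

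TCL1-AT 4 was the highest TCL1-AT array for 12 of the 20 endoplasmic reticulum genes (60%), beside 28.4% of all features. Without it the counts were again 2 higher and 5 lower. Plasma cells are rich in these chaperones, and Mzb1, the single plasma cell marker tested, stood at 8.09 on TCL1-AT 3, at 4.99 to 6.22 on the other TCL1-AT arrays and at 4.18 to 4.84 on WT arrays. The mean level of the 20 genes was 7.81 on TCL1-AT 3, the lowest of the TCL1-AT arrays (7.94 to 8.17 on the others). The B cell genes were also highest on TCL1-AT 3, at 6.38, beside 5.73 to 5.87 on the other TCL1-AT arrays. Jchain, another plasma cell gene, was detected on 1 TCL1-AT array and 0 WT arrays. Sdc1, Tnfrsf17, Prdm1, Eaf2 and Pou2af1 were each detected on at most 1 array of either group. The part of plasma cells or B cells in the chaperone levels was not tested.

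The other genes of these pathways are described by lists, and no list was tested as a set. Over all features 12.3% were higher, 15.4% lower and 27.7% called in either direction, and the counts below stand beside these shares. Of 22 other cytosolic chaperones and co-chaperones, 6 were higher and 1 lower (31.8% called), with a median log2 difference of 0.18. Stip1 (HOP), which links HSP70 to HSP90, averaged 10.11 ± 0.18 in TCL1-AT arrays and 9.08 ± 0.15 in WT arrays (SD, n = 5 each), a difference of 1.03 (SE 0.11, adjusted p = 1.94e-05 in limma's test). Ahsa1, an activator of the HSP90 ATPase, was higher by 0.46 and the J-domain gene Dnajb2 by 0.53. Fkbp4, Chordc1 and Ptges3, which also act with HSP90, were higher by 0.40, 0.38 and 0.39, and are named in addition, after their values were seen, because they complete the 6. Fkbp5, a glucocorticoid-induced HSP90 co-chaperone, averaged 5.96 ± 0.23 in TCL1-AT arrays and 7.59 ± 0.54 in WT arrays (SD, n = 5 each), and was lower by a log2 difference of -1.63 (SE 0.22, adjusted p = 0.000120 in limma's test).

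Of 13 subunits of the chaperonin TRiC and of prefoldin, which fold actin and tubulin, 4 were higher and 2 lower (46.2% called, median -0.01). Cct3, Pfdn2 and Cct6a were higher by 0.88, 0.67 and 0.52, and Vbp1 was lower by a log2 difference of -1.04. Within TRiC, Cct3 and Cct6a were higher and Cct5 was lower (-0.63, named after its value was seen). Of 12 mitochondrial chaperones and proteases, 3 were higher and 1 lower (33.3% called, median 0.05). Htra2, a protease of the intermembrane space, averaged 10.92 ± 0.17 in TCL1-AT arrays and 9.88 ± 0.08 in WT arrays (SD, n = 5 each) and was higher by 1.04 at its brightest probe, with its other probes at 0.81 and 1.15. The protease subunit gene Clpp was higher by 0.41 and the mitochondrial HSP90 gene Trap1 by 0.39, while Clpx was lower by a log2 difference of -0.28, a call lost in 12 of 18 alternatives.

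Of 16 genes listed as other endoplasmic reticulum folding enzymes and lectins, 1 was higher and 4 lower (31.2% called, median -0.08). Dnajc10 (ERdj5), a disulfide reductase, averaged 10.72 ± 0.09 in TCL1-AT arrays and 9.92 ± 0.10 in WT arrays (SD, n = 5 each), a difference of 0.80 (SE 0.09, adjusted p = 2.88e-05 in limma's test). The oxidase gene Ero1b (-0.75), Sdf4 (-0.70) and Sdf2 (-0.37) were lower. Of 18 genes of the translocon, signal peptidase and oligosaccharyltransferase, 0 were higher and 5 lower at adjusted p under 0.05 in limma's test. Their median log2 difference was -0.13. The share called, 27.8%, was near the 27.7% of all features, and all 5 were lower, beside 15.4% of all features. An unadjusted p under 0.05 in limma's test was reached by 8 of the 18, beside 5871 of 14859 features. The mean level of the 18 genes was 9.10 to 9.31 on TCL1-AT arrays and 9.34 to 9.43 on WT arrays, without overlap. Sec62 (-0.57), Ssr1 (-0.60), Ssr4 (-0.37) and Spcs3 (-0.33) were among the 5 lower genes.

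Of 12 genes of degradation from the endoplasmic reticulum, 1 was higher, the segregase gene Vcp (0.37), and 1 lower, Herpud2 (-0.44). That is 16.7% called, beside 27.7% of all features, with a median of -0.04. Of 15 genes of unfolded protein response signalling, 4 were higher and 2 lower (40% called, median 0.04). Ppp1r15a (GADD34), which restores translation after eIF2 alpha phosphorylation, averaged 9.56 ± 0.37 in TCL1-AT arrays and 7.65 ± 0.17 in WT arrays (SD, n = 5 each), a difference of 1.90 (SE 0.16, adjusted p = 2.35e-06 in limma's test). The antioxidant factor gene Nfe2l2 (NRF2) was higher by 1.42 and the adaptor gene Traf2 by 1.17, both of which also act outside this response, and Wfs1, a negative regulator of ATF6, was lower by a log2 difference of -0.55. The mean level of this list was 7.17 to 7.27 on TCL1-AT arrays and 6.90 to 6.98 on WT arrays. Ppp1r15a, Nfe2l2 and Traf2 had the largest rises in the list and were set aside for that reason, after their values were seen. The mean of the other 12 genes was 6.91 to 6.96 on TCL1-AT arrays and 6.93 to 7.04 on WT arrays. Setting aside the most raised genes narrows such a gap in any list, so these means only describe it. The sensor genes Ern1 and Eif2ak3, which are not in the list, were lower.

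**Figure D5:**
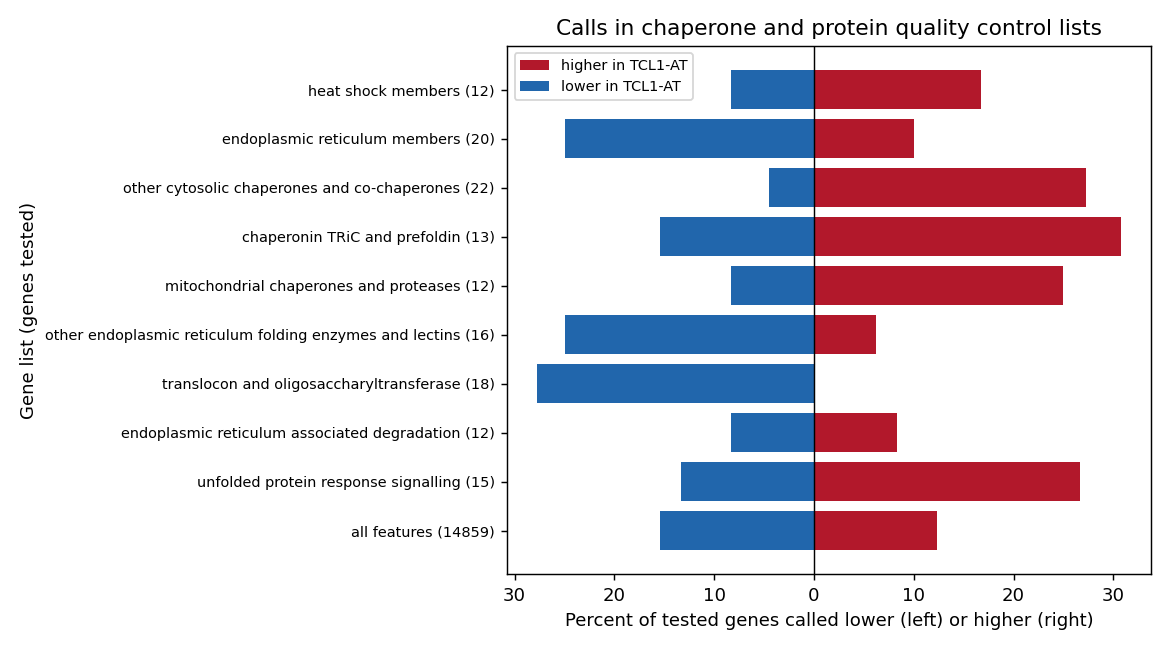
Percent of tested genes called higher (right, red) or lower (left, blue) in TCL1-AT, for both groups of members, 7 further lists and all features, with the number of tested genes in parentheses. Shares higher were largest for TRiC and prefoldin (30.8%), other cytosolic chaperones (27.3%), unfolded protein response signalling (26.7%) and mitochondrial chaperones (25%). The translocon list had 27.8% lower and 0 higher, and the endoplasmic reticulum members and other folding enzymes each had 25% lower. Over all features 12.3% were higher and 15.4% lower.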

How the data were processed

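Sorted splenic monocytes were profiled on 10 Illumina mouse arrays, 5 TCL1-AT and 5 WT, with 150 ng of total RNA per labelling, per the labels' protocols. The deposited non-normalized table gives, per the file headers, 1 linear intensity and 1 detection p-value per probe and array (46237 probes). The log2 values of the authors' series matrix come with no stated scale or centring. Recomputed from the deposited intensity values by normexp correction, an offset of 16, quantile normalization and log2, they agreed to within 4e-04, and their median was 4.30 on every array. The matrix values were used, and the offset makes differences of dim probes smaller. For arrays, their number limits the precision.

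A probe had to be detected (p under 0.05) on 5 or more arrays, which 20241 were. Names came from the platform annotation, updated through a RefSeq table of GRCm38.p6. The probe brightest on average over the 10 arrays stood for its gene, which gave 11506 named genes, and 3353 unnamed probes stayed in the fit. The groups were compared in limma 3.58.1 (lmFit, eBayes, 2-sided; R 4.3.3) with Benjamini-Hochberg adjustment over all features and no covariate. On simulated data for the 14859 features, with 200 changed by a log2 difference of 1, the fit recovered 194 in the right direction and called 18 others. The simulated noise was normal and independent between arrays, with the same SD in both groups. Outlying arrays and unequal spreads were therefore not covered, and far fewer features were changed than the 4119 called here. Motifs were sought in RefSeq promoter sequences of GRCm38.p6, which 29 of the 37 genes had.

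The genes and lists were chosen with earlier results of these data known. All members are named, with the value on every array for called ones and for Hspa1a, Hspa1b, Dnajb1, Hsp90aa1, Hspa5 and Xbp1, and for up to 4 called genes of each further list, those of lowest adjusted p, a difference. Alternatives were neqc from the intensities, median scaling with an offset of 50, no background correction, other detection filters, the mean of a gene's probes, raw signal as a covariate, a replicate block and each array left out. Values of list medians and of further genes under these alternatives were added after the data were seen.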

Additional observations from a re-analysis of the deposited data

Results flagged for a closer look

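In 3 of 64 sets of 5 arrays, which are the 32 tested genes in each group, 1 array lay far from the other 4 by Dixon's criterion (a gap over 0.71 of the range), where chance gives about 1 in 20 sets. Hspa1a stood at 8.71 on TCL1-AT 1, with the other TCL1-AT arrays at 5.75 to 6.39. Dnajb1 stood at 11.01 on the same array, with the others at 10.14 to 10.36. Sel1l, an adaptor of the HRD1 ubiquitin ligase, stood at 8.91 on TCL1-AT 3, with the others at 8.60 to 8.64.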

How the results depend on the processing

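The calls of Hsph1, Calr, Dnajb9 and Eif2ak3 held in all 18 alternatives, with log2 differences of 0.80 to 1.04, 0.51 to 0.86, -0.94 to -0.62 and -0.83 to -0.25. The Eif2ak3 probe is dim. Not all of the 18 are separate checks. The neqc values repeat the matrix to within 4e-04, so that outcome was fixed in advance for every gene. For genes with 1 tested probe, such as Hsph1, Calr and Eif2ak3, the mean of a gene's probes also left the difference unchanged. With the median raw signal as a covariate, an estimate that leans on WT 1, the only WT array at the level of the TCL1-AT arrays, 779 features were higher and 1067 lower, heat shock genes gave 1 higher and 0 lower, and 3 endoplasmic reticulum genes were lower. Heat shock genes gave 1 higher with median scaling (offset of 50), 0 lower with no background correction and 0 lower of 14 tested with no detection filter. Leaving out 1 array gave 1 to 2 heat shock genes higher, 0 to 1 lower, 2 to 5 endoplasmic reticulum genes higher (5 without WT 3) and 4 to 5 lower, with 1438 to 2047 features higher and 1880 to 2307 lower. The heat shock count of higher genes was 1 without TCL1-AT 1, TCL1-AT 5, WT 1, WT 2 or WT 3. With the mean of a gene's probes, Hspd1 was called higher, at 0.61 (adjusted p = 0.00654 in limma's test). It was not called at its brightest probe (-0.004). For the other changes the cause was not tested.

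The replicate numbers did not pair the arrays: deviations of same-numbered arrays correlated at -0.17, 0.20, 0.05, -0.17 and -0.08, and only 1 of 5 TCL1-AT arrays correlated best with its own number. With the replicate block 1506 features were higher and 1982 lower, and heat shock genes gave 1 higher and 0 lower.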
